A study of Mus musculus with 13 samples.

Results

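The comparison was of 2 libraries from AAV2-Cre eyes with 3 libraries from AAV2-GFP eyes, 5 of the 13 libraries of the series, chosen by the column names of the count table. The AAV2-Cre libraries were labelled UTX knockout and the AAV2-GFP libraries were labelled GFP. All 5 came from the retinas of mice labelled P42 (postnatal day 42), dissected 3 days after optic nerve crush. The mice carried Kdm6a alleles with exon 3 floxed in both groups, and a virus given into the vitreous supplied either Cre recombinase or green fluorescent protein, so both groups shared the floxed alleles, the injection and the injury. The groups differed in the viral cargo, and no library held Cre without the floxed alleles. An effect of Cre or of the virus and an effect of the deletion therefore cannot be told apart here. Cells were dissociated and sorted on the surface antigen Thy1.2, and poly(A) RNA was sequenced. The question was which genes the deletion moves in injured retinal ganglion cells (RGCs). How many mice went into each library is not stated, so p-values measure only the spread between these samples.

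Kdm6a (also UTX) is an X-linked demethylase that removes methyl groups from lysine 27 of histone H3, a mark that Polycomb repressive complex 2 places on silenced genes. Optic nerve crush cuts the axons of RGCs, the output neurons of the retina, most of which neither regrow their axons nor survive for long. AAV2 given into the vitreous infects mainly RGCs, so a deletion by this route need not reach the other cells of a sort. Type I and type II interferons act on neighbouring cells through receptors, Janus kinases and STAT transcription factors. Complexes that hold STAT2 and IRF9 bind interferon-stimulated response elements in promoters of antiviral genes, and resting retina expresses such genes at low levels.

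The label of the sorted cells was checked against markers before the comparison. Thy1, the gene of the sorting antigen, stood at 38.7 and 34.4 CPM in AAV2-Cre and 17.3, 25.4 and 27.1 CPM in AAV2-GFP (CPM, counts scaled to a common library total after TMM scaling), a log2 fold change of 0.65 ± 0.24 (SE) (edgeR, Benjamini-Hochberg adjusted p = 0.224). The neurofilament gene Nefl was at 187 and 159 CPM in AAV2-Cre and 187, 165 and 152 CPM in AAV2-GFP. Defining RGC genes were close to absent in all 5 libraries, with Rbpms at 1.98 and 3.15 CPM against 2.47, 2.31 and 0.624 CPM, and Pou4f2 held 2 counts in AAV2-GFP replicate 1 and 0 in the other 4 libraries. Together the 24 listed RGC markers took from 0.0442% to 0.0571% of all counts, while the 34 rod markers took 2.05% and 4.19% in the AAV2-Cre libraries and 4.42% to 5.36% in the AAV2-GFP libraries. The sorted cells are therefore described here by the Thy1.2 sort and not as pure RGCs. In such bulk samples, fewer cells of a type and less RNA per cell cannot be told apart.

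Kdm6a itself lies on the X chromosome at chrX:18162575-18279936 (GRCm38). Its reads over all exons stood at 111 and 113 CPM in AAV2-Cre and 116, 102 and 123 CPM in AAV2-GFP, a log2 fold change of -0.02 ± 0.15 (SE) (edgeR, Benjamini-Hochberg adjusted p = 0.963), and the groups overlapped. Counts per gene pool every exon and do not single out the floxed exon, so they do not check the deletion. Its paralog Kdm6b, a second H3K27 demethylase, differed by -0.26 ± 0.26 (SE) (adjusted p = 0.688, edgeR with Benjamini-Hochberg adjustment). The Y-linked paralog Uty had 0 counts in all 5 libraries.

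Of 18395 genes tested, 207 rose in AAV2-Cre (1.13% of genes tested) and 40 fell (0.217%), together 1.34%, by edgeR's quasi-likelihood test at a threshold of 0.05 on the Benjamini-Hochberg adjusted p and of 2-fold on the change. Of the 207 that rose, 52 were on 4 lists of interferon genes. Those that fell included 4 of 98 tested photoreceptor and cilium list genes, Isl1 of the bipolar list, and Fcrls of microglia. On the microglia and macrophage list, 0 of 24 tested genes fell. For all 247 genes the AAV2-Cre and AAV2-GFP libraries did not overlap, while over all genes tested 17.9% lay wholly higher and 17.6% wholly lower in AAV2-Cre. With adjusted p alone, 244 genes rose (1.33%) and 54 fell (0.294%), and the lists of genes below are counted that way. At an unadjusted p under 0.05 by edgeR, 1576 of the 18395 genes were higher and 1453 lower, the background for list counts at that p. The median log2 fold change over all genes tested was -0.03. Each library carried between 13637602 and 16070720 counts. The number of called genes rested on both AAV2-Cre libraries, because without AAV2-Cre replicate 1 it was 8 and without replicate 2 it was 5, with 0 genes lower in either case. It was 147 without AAV2-GFP replicate 1, 96 without replicate 2 and 267 without replicate 3.

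Antiviral effectors of the interferon response rose in large number. Of 68 tested members of 3 lists (Ifit and Ifi genes, Oas, Mx and other effectors, guanylate-binding proteins and immunity-related GTPases), 45 rose and 0 fell, 66.2% against 1.33% of all genes, and all 68 had a log2 fold change above 0. Without AAV2-Cre replicate 1 or 2, 3 and 1 of the Ifit and Ifi genes and 0 of the other 2 lists passed. Ifit1, which binds viral RNA that lacks a host-type cap, gave 203 and 239 CPM against 22.9, 25.4 and 24.9 CPM. Both AAV2-Cre libraries stood far above all 3 AAV2-GFP libraries, which lay close to each other. The log2 fold change of Ifit1 was 3.18 ± 0.16 (SE), a 9.05-fold rise with the smallest p of the comparison (edgeR, Benjamini-Hochberg adjusted p = 0.000266).

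Other Ifit genes lie beside Ifit1 in a cluster at chr19:34550694-34650009 (GRCm38), in which 5 of 6 genes rose more than 2-fold. Ifit3 stood at 80.6 and 114 CPM in AAV2-Cre and 10.2, 25 and 20.2 CPM in AAV2-GFP, a log2 fold change of 2.40 ± 0.34 (SE) (edgeR, Benjamini-Hochberg adjusted p = 0.0163). Ifit2 gave 239 and 278 CPM against 65.2, 75.4 and 78.9 CPM with a log2 fold change of 1.82 ± 0.16 (SE). Ifit genes resemble each other in sequence, so reads could be split among them by the counting. Rsad2, which encodes the antiviral enzyme viperin, was at 86 and 68.3 CPM in AAV2-Cre and 8.63, 8.41 and 16.2 CPM in AAV2-GFP and rose by 2.80 ± 0.30 (SE) on the log2 scale. Over the Ifit and Ifi list, 13 of 20 tested genes rose and 0 fell, with a median log2 fold change of 1.81.

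Oas enzymes make a second messenger that activates the RNase of antiviral defence, and Mx proteins block the replication of viruses. Oas3 stood at 111 and 94.3 CPM against 21.9, 28.5 and 29.2 CPM, a log2 fold change of 1.95 ± 0.19 (SE) (edgeR, Benjamini-Hochberg adjusted p = 0.00698). Mx1 gave 60.3 and 41.3 CPM in AAV2-Cre and 7.32, 13.5 and 13.7 CPM in AAV2-GFP, a rise of 2.14 ± 0.31 (SE). For both genes the lowest AAV2-Cre library was above the highest AAV2-GFP library. Isg15, a ubiquitin-like protein joined to other proteins under interferon, was lower in level at 6.6 and 7.45 CPM against 1.31, 1.22 and 0.936 CPM and rose by 2.60 ± 0.47 (SE) (edgeR, Benjamini-Hochberg adjusted p = 0.0377). Usp18, the protease that takes Isg15 off again and damps the type I receptor, rose by 1.88 ± 0.21 (SE). Mx1, Isg15 and Usp18 were chosen after their values were seen. In this list 19 of 30 tested genes rose, with a median log2 fold change of 1.54.

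Guanylate-binding proteins and immunity-related GTPases attack the vacuoles of intracellular parasites and are classical targets of interferon gamma. Of 18 tested, 13 rose and 0 fell, with a median of 1.62. Gbp3 stood at 308 and 354 CPM in AAV2-Cre and 94.7, 103 and 133 CPM in AAV2-GFP, a log2 fold change of 1.58 ± 0.18 (SE) (edgeR, Benjamini-Hochberg adjusted p = 0.00827). Gbp10 gave 48.2 and 38.6 CPM against 5.44, 3.98 and 7.99 CPM and rose by 2.90 ± 0.31 (SE). The groups were apart for both. Igtp rose by 1.80 ± 0.24 (SE), from 94.4 ± 31.5 CPM in AAV2-GFP to 329 ± 12.2 CPM in AAV2-Cre (mean ± SD, n = 3 and n = 2).

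**Figure D1:**
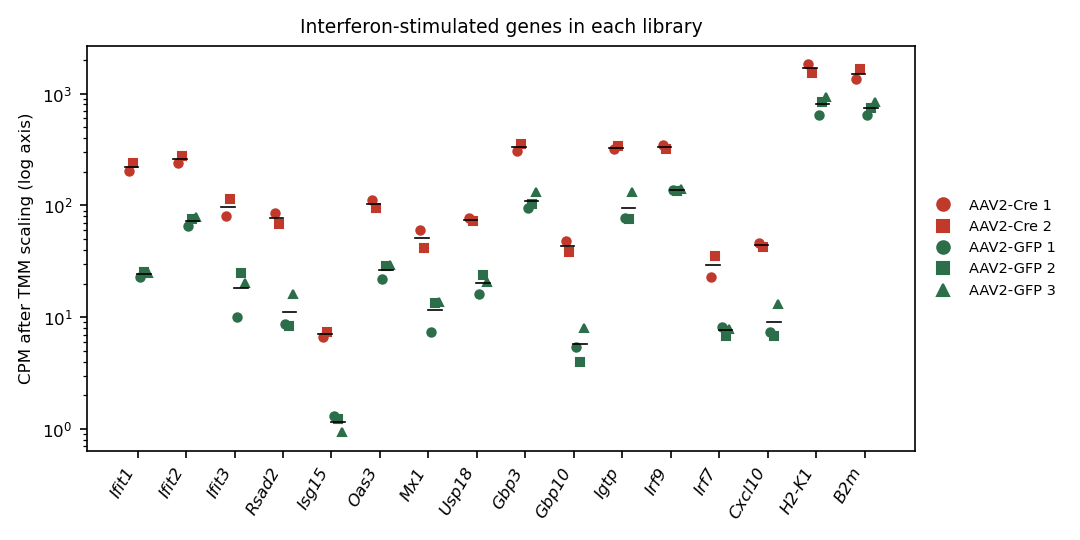
CPM after TMM scaling of interferon-stimulated genes in each of the 5 libraries on a log axis. Each point is 1 library and each bar a group mean, and for every gene drawn both AAV2-Cre points lie above all 3 AAV2-GFP points.

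Promoters of these genes are shown because a shared sequence can be read in them. The windows come from RefSeq (GRCm38.p6), are written 5′ to 3′ on the strand of the gene, and end 56 bases before the start for Ifit1, 37 for Isg15, 91 for Rsad2 and 10 for Gbp3. They lie at chr19:34640765-34640833 (plus strand), chr4:156200855-156200916 (minus strand), chr12:26456543-26456592 (minus strand) and chr3:142559979-142560034 (plus strand). Capitals mark matches on either strand to the core of the interferon-stimulated response element, which is GAAA, any 2 bases and GAAA again, or on the other strand TTTC, any 2 bases and TTTC, and matches may overlap.
Ifit1: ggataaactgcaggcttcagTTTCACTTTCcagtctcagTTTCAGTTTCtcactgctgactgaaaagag
Isg15: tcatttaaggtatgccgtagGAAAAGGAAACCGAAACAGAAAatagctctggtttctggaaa
Rsad2: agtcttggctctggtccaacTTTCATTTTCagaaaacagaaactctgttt
Gbp3: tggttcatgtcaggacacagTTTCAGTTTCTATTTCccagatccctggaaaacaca

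Ifit1 held 2 matches, Isg15 3, Rsad2 1 and Gbp3 2. Promoters in the RefSeq table were found for 140 of the 207 genes that rose and for 23 of the 40 that fell. The sequence stood in the 250 bases before the start in 44 of 175 promoters (25.1%) of genes that rose, in 0 of 35 of genes that fell, and in 435 of 15726 promoters (2.77%) of all genes tested. It stood in 978 of 32851 promoters (2.98%) of the whole table. Guanylate-binding and immunity-related GTPase genes had it in 9 of 11 promoters. Among genes that rose and are on none of the interferon, MHC class I and chemokine lists, 16 of 114 promoters (14.0%) held it. These include relatives of listed interferon genes that the lists left out, such as Ifi203, Ifi206, Ifi208, Slfn9 and Trim30d. The 14.0% is therefore not a share for genes outside the interferon response. A match is a description of letters and no evidence of binding in these cells.

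Sensors, signal carriers and the interferons themselves were read next. Ifnb1 and Ifna4, type I interferon genes, had 0 counts in all 5 libraries, which allows at most 3 counts in a library, or between 0.187 and 0.22 CPM. Ifng, the type II interferon, stood at 15.7 and 8.29 CPM in AAV2-Cre and 4.64, 6.55 and 17.9 CPM in AAV2-GFP, and its groups overlapped (edgeR, Benjamini-Hochberg adjusted p = 0.85). The type I receptor genes Ifnar1 and Ifnar2 were at 116 and 98.6 CPM on average in AAV2-Cre and did not pass the test (adjusted p = 0.633 and 0.112 by edgeR with Benjamini-Hochberg adjustment).

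Below the receptors, several transcription factors rose. Irf9, the DNA-binding partner of STAT2, stood at 347 and 319 CPM against 138, 133 and 139 CPM, a log2 fold change of 1.28 ± 0.14 (SE) with no overlap (edgeR, Benjamini-Hochberg adjusted p = 0.00698). Irf7, which amplifies type I interferon production, was at 22.9 and 35.4 CPM in AAV2-Cre and 8.27, 6.74 and 7.93 CPM in AAV2-GFP and rose by 1.93 ± 0.28 (SE). Stat2 rose by 1.07 ± 0.18 (SE) and Irf1, a target of interferon gamma, by 1.47 ± 0.26 (SE). Stat2 and Irf1 were chosen after their values were seen. The cytosolic RNA sensor Ddx58 (RIG-I) rose by 1.33 ± 0.20 (SE), and the sister sensor Ifih1 missed the threshold at 1.24 ± 0.25 (SE) with an adjusted p of 0.0524 (edgeR, Benjamini-Hochberg). In all, 8 of 29 tested signaling and sensor genes rose and 0 fell, with a median log2 fold change of 0.67.

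MHC class I genes present peptides from inside the cell and are induced by both interferon types. B2m, the shared light chain, stood at 1343 and 1643 CPM against 637, 749.9 and 839 CPM, a log2 fold change of 1.01 ± 0.17 (SE) (edgeR, Benjamini-Hochberg adjusted p = 0.0279). H2-K1 rose by 1.06 ± 0.18 (SE) and the immunoproteasome subunit Psmb9 by 1.23 ± 0.19 (SE). The peptide transporter gene Tap1 was at 1.27 ± 0.26 (SE) and just missed the threshold (edgeR, Benjamini-Hochberg adjusted p = 0.0524). Of 16 tested genes, 8 rose and 0 fell (median 1.14), and H2 genes are close paralogs whose reads could be split. MHC class II genes had a median of 0.54, and 0 of 10 passed edgeR's test in either direction, with 5 at an unadjusted p under 0.05 and 4 called higher by DESeq2 (which called 5.18% of all genes higher and 3.32% lower).

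Chemokines draw white blood cells, and 8 of 28 tested chemokine and receptor genes rose while 0 fell (median 0.71). Cxcl10, an interferon-induced ligand for T cells, stood at 46.3 and 42.2 CPM in AAV2-Cre and 7.32, 6.74 and 13.1 CPM in AAV2-GFP, a rise of 2.28 ± 0.31 (SE) without overlap (edgeR, Benjamini-Hochberg adjusted p = 0.0147). Its receptor gene Cxcr3 rose by 1.62 ± 0.22 (SE), and Ccl5, made by T cells and glia, rose by 1.74 ± 0.25 (SE). Among 24 tested cytokine and cytokine receptor genes, 3 rose and 0 fell, namely Il1b at 1.08 ± 0.18 (SE), Tnf at 1.31 ± 0.21 (SE) and Osm at 1.11 ± 0.16 (SE). Osm encodes oncostatin M, a cytokine that signals through gp130 receptors, and was also the 1 gene of 29 on the list of axon growth promoters that rose. In the complement system 2 of 15 genes rose, the inhibitor Serping1 by 1.74 ± 0.22 (SE) and C4b by 1.08 ± 0.19 (SE).

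**Figure D2:**
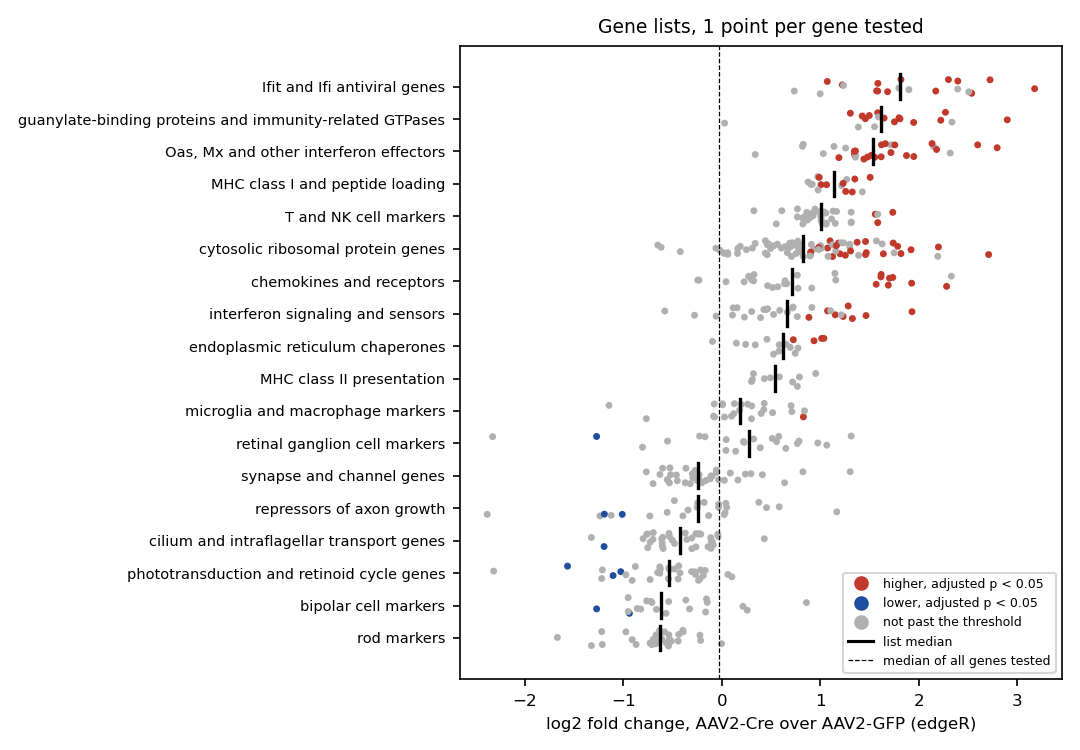
Log2 fold change of AAV2-Cre over AAV2-GFP (horizontal axis) for the tested members of gene lists (rows), 1 point per gene, with the median of all genes (-0.03) as a dashed line. The medians of the interferon lists lie to the right of the line. All 68 antiviral effectors lie above 0, 3 of 29 interferon signaling and sensor genes lie below 0, and all 34 rod markers lie below 0.

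Transcripts of blood cells took a larger share of the AAV2-Cre libraries. Markers of T and natural killer cells took 0.293% and 0.179% of counts in the AAV2-Cre libraries and 0.0803%, 0.145% and 0.142% in the AAV2-GFP libraries. Markers of monocytes and neutrophils took 0.137% and 0.147%, against 0.0773%, 0.0714% and 0.0872%. Neither share overlapped between the groups. T cells carry Thy1 themselves, so a Thy1.2 sort can hold them. Of 35 tested T and natural killer cell markers, 3 rose, among them Cd6 at 1.56 ± 0.22 (SE) and Klrd1, a natural killer cell receptor subunit, at 1.58 ± 0.25 (SE), and 28 had an unadjusted p under 0.05. Of 16 monocyte and neutrophil markers 4 rose, with Ly6c2, the gene of inflammatory monocytes, at 150.4 and 199 CPM against 36.6, 31.6 and 51.8 CPM and a change of 2.13 ± 0.23 (SE) (edgeR, Benjamini-Hochberg adjusted p = 0.00709). The part of these cells in the rise of the interferon genes was not tested.

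Antibody genes formed the other abundant blood signal. Immunoglobulin segments together took 2.7% and 3.01% of all counts in the AAV2-Cre libraries, and 0.493%, 1.66% and 1.35% in the AAV2-GFP libraries. Of 158 segments tested, 12 rose and 0 fell. Ighg2b, the heavy chain constant gene of an IgG class, had 49774 and 26734 counts in AAV2-Cre and 2486, 5178 and 4539 in AAV2-GFP, a log2 fold change of 3.34 ± 0.34 (SE) (edgeR, Benjamini-Hochberg adjusted p = 0.00698). The variable segment Ighv1-52 had 2723 and 1909 counts against 3, 23 and 9. Igkv11-125 had 135 and 54 counts in AAV2-Cre and 0 in every AAV2-GFP library, at least 31.4-fold higher when set against 3 counts per AAV2-GFP library. Ighv14-1, with 110 and 56 counts against 0, was at least 27.6-fold higher by the same floor, and both were chosen after their values were seen. Both entered the test only through the AAV2-Cre libraries, so they could only come out higher. The same holds for Igkv16-104 and Igkv14-130, with 1 AAV2-GFP count each, which are also among the 12. It holds as well for Ighv1-52, for Igkv3-7 (0, 1 and 6 AAV2-GFP counts) and for Ighv1-84 (0, 9 and 0), also among the 12. The most abundant variable segment differed between libraries, being Ighv1-50 and Igkv14-111 in the AAV2-Cre libraries and Igkv10-96, Ighv1-69 and Igkv10-96 in the AAV2-GFP libraries. Variable segments resemble each other, so their reads could be split.

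Some B cell genes and genes of the secretory machinery rose as well. The B cell receptor gene Cd79a rose by 1.63 ± 0.19 (SE) and Ms4a1, which encodes CD20, by 1.58 ± 0.31 (SE), the 2 of 19 tested B and plasma cell markers that rose, while 16 had an unadjusted p under 0.05. Of 16 endoplasmic reticulum chaperone genes 4 rose, with Manf at 1.04 ± 0.16 (SE), Sdf2l1 at 1.01 ± 0.19 (SE), Xbp1, the factor of the unfolded protein response and of plasma cells, at 0.94 ± 0.17 (SE), and Hspa5 (BiP) at 0.73 ± 0.14 (SE). Derl3 and Bhlha15, genes of professional secretory cells chosen after their values were seen, rose by 1.92 ± 0.31 (SE) and 2.16 ± 0.41 (SE).

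**Figure D3:**
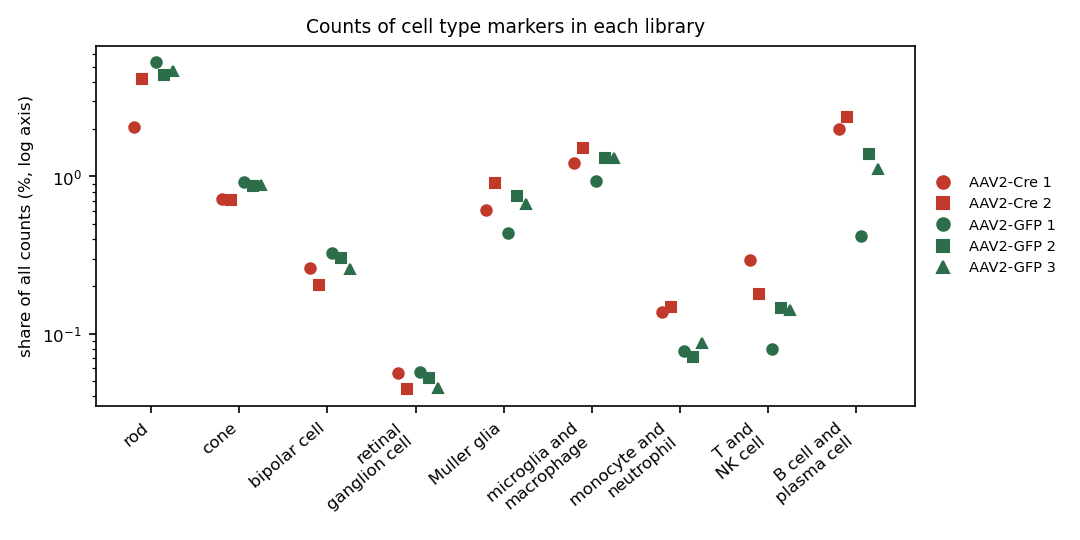
Share of all counts, in percent on a log axis, taken by the marker genes of each cell type in each of the 5 libraries. B cell, T cell and monocyte shares are higher in both AAV2-Cre libraries, and the rod share is lower in both, most of all in AAV2-Cre replicate 1 at 2.05%.

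Some reactive glia markers rose. Of 14 tested, 3 rose and 0 fell, where 1.33% of all genes rose, 8 had an unadjusted p under 0.05 with a higher level, and the median log2 fold change was 0.70. Their summed share of counts was 0.178% and 0.196% in AAV2-Cre and 0.104%, 0.135% and 0.129% in AAV2-GFP, without overlap. Gfap, the intermediate filament of reactive Müller cells and astrocytes, stood at 49.6 and 119 CPM in AAV2-Cre and 20.8, 25.2 and 19.4 CPM in AAV2-GFP, and rose by 1.95 ± 0.33 (SE) (edgeR, Benjamini-Hochberg adjusted p = 0.0284). Replicate 2 of AAV2-Cre was the higher of the pair, and both were above every control. C4b, a complement component, and Cd44, a receptor for hyaluronan, rose by 1.08 ± 0.19 (SE) and 0.87 ± 0.15 (SE) and were chosen after their values were seen. Of 21 tested Müller glia markers Vim alone rose, by 0.91 ± 0.18 (SE), and their share overlapped between groups (0.614% and 0.908% against 0.439%, 0.746% and 0.667%).

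Microglia markers had a median log2 fold change of 0.19, and Ptprc was the 1 of 24 that rose. P2ry12, a purinergic receptor of resting microglia, stood at 337 and 522 CPM against 342, 536 and 482 CPM, with overlapping groups. Fcrls, a scavenger receptor gene typical of brain and retinal microglia, behaved otherwise, at 12.4 and 18.3 CPM in AAV2-Cre and 83.5, 61.5 and 82.2 CPM in AAV2-GFP. Its log2 fold change was -2.30 ± 0.25 (SE), and the groups lay far apart (edgeR, Benjamini-Hochberg adjusted p = 0.00698). Cd163l1, a scavenger receptor gene, fell too (-1.80 ± 0.34 (SE)), and the macrophage mannose receptor gene Mrc1 was at -1.15 ± 0.24 (SE) with an adjusted p of 0.0543 (edgeR, Benjamini-Hochberg).

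Photoreceptor genes were among those that fell. Of 98 tested genes on the rod, cone, phototransduction, photoreceptor transcription factor and cilium lists, 4 fell and 0 rose, and 93 had a log2 fold change at or below 0. Rgs9 and its anchor Rgs9bp form the complex that switches off transducin after a flash. Rgs9 (chr11:109225355-109298129) stood at 52.2 and 45 CPM against 145, 136 and 151 CPM, a log2 fold change of -1.57 ± 0.16 (SE) (edgeR, Benjamini-Hochberg adjusted p = 0.00698). Both AAV2-Cre libraries were near one another and far below the controls. Rgs9bp gave 148 and 180.0 CPM in AAV2-Cre and 414, 351 and 292 CPM in AAV2-GFP, a change of -1.10 ± 0.19 (SE). Cone arrestin, Arr3, which quenches cone opsins, was at 242 and 245 CPM against 385, 508 and 595 CPM and changed by -1.03 ± 0.20 (SE) (edgeR, Benjamini-Hochberg adjusted p = 0.0447).

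Of 36 tested cilium and intraflagellar transport genes, 1 (Rpgrip1) fell and 0 rose, with a median log2 fold change of -0.43. Rpgrip1, which anchors RPGR in the connecting cilium, stood at 162 and 177 CPM in AAV2-Cre and 488, 329.7 and 348 CPM in AAV2-GFP, a change of -1.20 ± 0.20 (SE) without overlap (edgeR, Benjamini-Hochberg adjusted p = 0.0283). Crxos (chr7:15882617-15904020), the neighbour of the photoreceptor factor gene Crx on the opposite strand, was at 6.89 and 5.14 CPM against 27.5, 28.2 and 24.8 CPM and changed by -2.16 ± 0.27 (SE). Slc24a2, an exchanger of cone outer segments chosen after its values were seen, fell by 1.12 on the log2 scale.

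Rod markers did not pass the test one by one. All 34 rod markers had a log2 fold change below 0, with a median of -0.63, 18 had an unadjusted p under 0.05, and 21 of the 34 lay wholly below the controls, against 17.6% of all genes. By edgeR 0 passed the adjusted threshold, by DESeq2 7 did (3.32% of all genes), and by edgeR without the filter on low counts 21 did (1.89% of all genes). In AAV2-Cre replicate 1 all 34 were lower than in replicate 2, at a median of 0.506 of its level. The median of the ratio to the AAV2-GFP mean was 0.438 in replicate 1 and 0.843 in replicate 2, so replicate 1 lay furthest from the controls. The mean rod share of counts differed by -1.697 percentage points between the groups, and by -0.628 without AAV2-Cre replicate 1.

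Bipolar cells, the neurons between photoreceptors and RGCs, were represented by 20 tested markers, of which 2 fell and 0 rose, with a median of -0.62. Isl1, a homeodomain factor of ON bipolar cells, of cholinergic amacrine cells and of RGCs, stood at 34.3 and 45.4 CPM in AAV2-Cre and 104, 99.9 and 84.7 CPM in AAV2-GFP, a change of -1.27 ± 0.20 (SE) (edgeR, Benjamini-Hochberg adjusted p = 0.0216). Prkca, the kinase by which rod bipolar cells are stained, changed by -0.94 ± 0.18 (SE), less than 2-fold. Isl1 was also the 1 gene of 22 tested on the RGC marker list that fell. Jag1, a Notch ligand chosen after its values were seen, changed by -1.11 ± 0.17 (SE).

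The promoters of 2 of the genes that fell are shown for TAATCC, the site that Crx and Otx2, the paired-type factors of photoreceptors and bipolar cells, prefer. The windows are chr14:52110855-52110900 for Rpgrip1 and chr5:130187135-130187179 for Rabgef1, both on the plus strand (RefSeq, GRCm38.p6), with the match in capitals on either strand.
Rpgrip1: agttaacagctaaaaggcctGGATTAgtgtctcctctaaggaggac
Rabgef1: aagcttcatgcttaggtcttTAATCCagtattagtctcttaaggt

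The sequence stood in 4 of 35 promoters (11.4%) of genes that fell, those of Rabgef1, Tnpo1, Isl1 and Rpgrip1. That share was near the 10.9% (19 of 175) of genes that rose, beside 5.45% of all genes tested and 6.25% of all promoters. Rod markers held it in 12 of 28 promoters (42.9%).

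MicroRNA-124 is the most abundant microRNA of neurons and comes from 3 host transcripts. Mir124a-1hg (chr14:64587331-64593961), also called Rncr3 in retina, stood at 71.5 and 64.7 CPM against 178, 246 and 340.1 CPM, a change of -1.90 ± 0.27 (SE) with no overlap (edgeR, Benjamini-Hochberg adjusted p = 0.0163). Mir124-2hg, the most abundant of the hosts here, was at 909 and 735 CPM in AAV2-Cre and 1988, 1341 and 1332 CPM in AAV2-GFP and changed by -0.92 ± 0.21 (SE), short of the threshold (edgeR, Benjamini-Hochberg adjusted p = 0.0749). Both AAV2-Cre values were below the controls for each. These are poly(A) host transcripts, and mature microRNA was not measured.

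**Figure D4:**
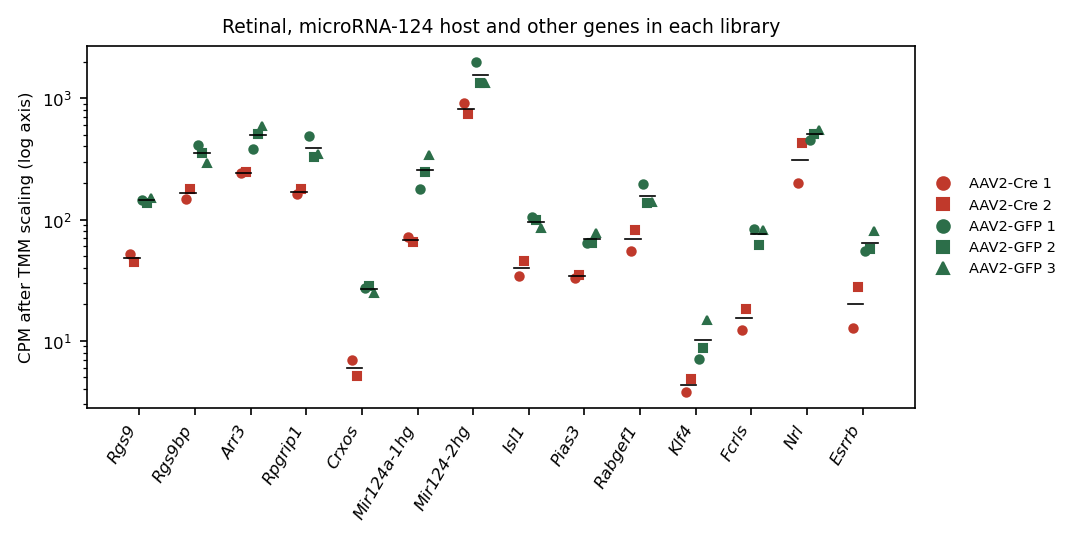
CPM after TMM scaling of retinal, microRNA-124 host and other genes in each of the 5 libraries on a log axis. For Rgs9, Rpgrip1, Isl1, Fcrls and Mir124a-1hg both AAV2-Cre points lie below all 3 AAV2-GFP points.

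Genes that the study follows after injury were looked up next, and since it reported them from these samples their direction is not independent evidence. The paper took up Klf4 from earlier work and also measured H3K27 methylation there. It tested Rabgef1, Tnfsf13 and Pias3 by real-time PCR, data that were not examined here. Klf4 (chr4:55527143-55532466), a factor that restrains axon growth, stood at 3.81 and 4.82 CPM against 7.11, 8.73 and 14.7 CPM, a change of -1.24 ± 0.42 (SE) (edgeR, unadjusted p = 0.0167, Benjamini-Hochberg adjusted p = 0.186). Its groups did not overlap, and AAV2-Cre replicate 1 was the lowest. None of the 13 tested Klf genes passed edgeR's test in either direction. Of the 13, 9 were above 0 and 4 below, with a median log2 fold change of 0.30. At an unadjusted p under 0.05, 0 were higher and 2 lower, and 1 was called lower by DESeq2. Pias3, which inhibits STAT3, gave 33.3 and 35.1 CPM in AAV2-Cre and 64.4, 64.6 and 77.9 CPM in AAV2-GFP, and changed by -1.01 ± 0.18 (SE) (edgeR, Benjamini-Hochberg adjusted p = 0.0355). Rabgef1, an exchange factor of endosomes, was at 54.9 and 82.6 CPM against 195, 137 and 139 CPM and changed by -1.19 ± 0.24 (SE). These 2 genes of 9 tested fell and 0 rose, and 0 of the 9 passed without any 1 of the 5 libraries.

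Other genes of axon growth passed in small number. Thbs1, which encodes thrombospondin 1, was at 1.01 ± 0.25 (SE) (edgeR, Benjamini-Hochberg adjusted p = 0.0863), and Myc at 0.82 ± 0.21 (SE) (adjusted p = 0.0954 by the same test and adjustment). Of 25 tested repressors of axon growth 2 fell and 0 rose, the same Rabgef1 and Pias3. Among 38 axon guidance genes Sema3d, a secreted semaphorin, was alone in passing, at 0.293 and 0.386 CPM in AAV2-Cre and 4.57, 3.4 and 3.87 CPM in AAV2-GFP and a change of -3.50 ± 0.67 (SE). Sema3d entered the test only through the AAV2-GFP libraries. Camk2 kinases gave 0 of 5 past edgeR's threshold, with Camk2a at 1.27 ± 0.43 (SE) (edgeR, Benjamini-Hochberg adjusted p = 0.189), 2 of the 5 at an unadjusted p under 0.05 and 0 called by DESeq2. Among 17 Polycomb and H3K27 demethylase genes edgeR called 0, with a median of -0.04, and DESeq2 called 1 higher and 1 lower. The 3 at an unadjusted p under 0.05 (1 higher and 2 lower) were a share near that of all genes.

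A few neuronal genes rose, but neuronal lists did not rise as a whole. Of 39 tested synapse and channel genes, 0 passed edgeR's test in either direction. Of these, 30 were below 0, and the median log2 fold change was -0.24. Gad1, the enzyme that makes GABA in amacrine and horizontal cells, stood at 153 and 133 CPM against 47.7, 38.3 and 49.8 CPM, a rise of 1.66 ± 0.18 (SE) (edgeR, Benjamini-Hochberg adjusted p = 0.00698). It was 1 of the 2 that rose among 15 tested amacrine and horizontal cell markers, of which 8 were below 0 (median -0.15). Gad2, the sister enzyme, did not pass, at 0.40 ± 0.17 (SE) (edgeR, Benjamini-Hochberg adjusted p = 0.292). Cbln2 and Cbln4, secreted organizers of synapses, and C1ql2, of the same family, rose by 1.99 ± 0.27 (SE), 2.26 ± 0.43 (SE) and 1.62 ± 0.19 (SE), all 3 chosen after their values were seen. In cell death, Mlkl, the executor of necroptosis and an interferon target, rose by 2.38 ± 0.30 (SE) as the 1 of 26 death genes that passed. Cryaa, a lens crystallin gene, had 20 and 272 counts in AAV2-Cre and 3, 0 and 0 in AAV2-GFP, most of them in AAV2-Cre replicate 2. Cryaa entered the test only through the AAV2-Cre libraries.

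Ribosomal protein genes, whose reads can be shared with many pseudogenes, were also higher. Of 81 tested, 21 rose and 0 fell, with a median of 0.83, and their share of counts was 0.599% and 0.487% against 0.312%, 0.352% and 0.299%. Rpl23, a protein of the large subunit, rose by 2.71 ± 0.47 (SE). These are short genes, and the log2 fold change moved with exon length over all protein-coding genes. Its median was 0.42 for 248 genes of 501 to 1000 bases, -0.02 for 5638 genes of 4001 to 8000 bases and -0.13 for 2644 genes over 8000 bases. With exon length taken up in the fit, 10 of the 81 ribosomal genes rose (0.855% of all genes at that setting, by adjusted p alone), and beyond 2-fold 141 genes rose and 34 fell over all. Of the interferon genes, 12 of 20 Ifit and Ifi, 17 of 30 Oas and Mx and 11 of 18 guanylate-binding genes still rose, but 3 of 16 MHC class I genes. The part of length in the ribosomal result was otherwise not tested.

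**Figure D5:**
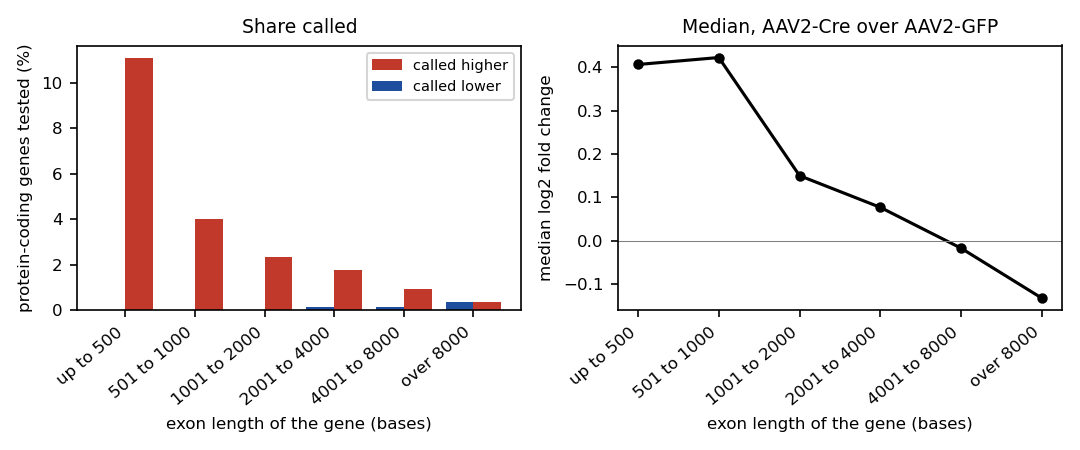
Protein-coding genes by exon length in bases, with the percentage that rose or fell as bars and the median log2 fold change of AAV2-Cre over AAV2-GFP as points. The share that rose goes from 11.1% of the 27 shortest genes to 0.378% of genes over 8000 bases, and the median from 0.41 to -0.13.

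Along the genome, 10 gene clusters and regions with interferon or immune genes, chosen with earlier results known, held 41 of the 207 genes that rose by at least 2-fold (19.8%), out of 88 genes tested in them. The guanylate-binding genes at chr3:142493978-142638008 rose in 4 of 4 cases and those at chr5:105014150-105346472 in 4 of 6. In the Ifi200 cluster at chr1:173350879-174031810, whose proteins sense DNA, 9 of 12 rose. Beside the Ifit cluster given above, the others held smaller shares. Oas and Oasl genes were counted together over chr5:114896936-120921652, where Oasl1 and Oasl2 lie apart from Oas2 and Oas3, and 4 of 8 rose. In the rest, 3 of 7 Slfn, 2 of 4 Trim30, 4 of 10 Ms4a and 1 of 5 Ifitm genes rose, and 5 of 26 of the MHC region. All 4 Phf11 genes tested rose, a family noticed after its values were seen. On the X chromosome, which carries Kdm6a, 2 genes rose and 2 fell of 577 tested.

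The development libraries of the series share no sample with the 5 libraries, so the genes were read there at P1 and P14, with calls by edgeR at an adjusted p under 0.05 and more than 2-fold. Of 163 genes that rose in AAV2-Cre and were tested in both fits, 102 were higher at P14 than at P1 (62.6%) and 5 were lower (3.07%). Over all 16557 genes tested in both, 19.7% were higher and 13.4% lower at P14. Of 32 genes that fell in AAV2-Cre, 12 were higher at P14 (37.5%) and 3 lower (9.38%). At P21 against P1, 79 of the 163 were higher and 10 lower, beside 20.4% and 16.4% of all genes. The development sorts differ in age, injury and depth, and the shares are a description.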

How the data were processed

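RNA of 5 Thy1.2-sorted retinal libraries (2 AAV2-Cre, 3 AAV2-GFP) was compared. Per the submitters' processing notes, the authors used Trimmomatic 0.39, FastQC 0.11.9, HISAT2 2.2.1 on GRCm38 and featureCounts (Subread 2.0.3). Deposited values were raw counts for 52550 genes, not normalized. The strand setting of the counting is not given in the sources used here, and the kit does not mark strand. Symbols and positions were matched by gene ID (GENCODE M21) for 52403 genes.

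Groups came from the labels. The 5 libraries were fitted alone in R 4.3.3 with edgeR 4.0.16 (TMM, filterByExpr, glmQLFit, glmQLFTest), with p-values adjusted by Benjamini-Hochberg over all 18395 genes tested. The common biological coefficient of variation was 0.34, and the chi-square per gene between replicates was 23.9 to 37.4, so no library was counted as a copy of another. On data simulated for this comparison (18241 genes), the share recovered was 5.15% for 97 genes made to differ 2-fold and 55.2% for 96 genes made to differ 4-fold, and 1 unchanged gene was called. The simulation drew all genes independently at the common variation and counted by adjusted p without the 2-fold limit. It therefore gives no error rate for the real calls. Alternatives were DESeq2 1.42.0, limma 3.58.1 (voom), other scalings, filters and samples, a replicate block, and an offset for exon length that was chosen after seeing the data.

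The members and lists were chosen with earlier results of these data known. The text names genes the study names, the 12 largest changes per direction among genes with mean log2 CPM 3 or more and no overlap, the 8 smallest p-values per direction, and per list the first 2 members and the 4 with the smallest p. Ribosomal, immunoglobulin and microRNA-124 host lists were added after seeing the data. Outside the rule and chosen with values seen were Ifng, Ifnb1, Ifna4, Ifnar1, Ifnar2, Ifih1, Tap1, Nefl, Pou4f2, Gad2 and Tnpo1, and others named so in the text. Floors cover counting error only, while the SE of a log2 fold change also holds the spread between libraries. PCR reads without molecular identifiers are not independent molecules. Some genes that the rule would name are not reported here.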

Additional observations from a re-analysis of the deposited data

How the results depend on the processing

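All 247 genes kept their sign wherever tested, in every alternative and with each library left out. The groups did not overlap for any of them, so leaving out a library could hardly turn a sign. The kept signs are therefore no test of the calls. The count itself moved. With DESeq2 it was 645 (442 higher, 203 lower), with no low-count filter 812 (576 and 236), and with all 13 libraries in 1 fit 1032 (651 and 381). Requiring at least 10 counts in every library gave 80 lower. Leaving out 1 library at a time gave 5 to 267 genes (5 to 242 higher, 0 to 28 lower), where fits with 1 AAV2-Cre library take its spread from the AAV2-GFP libraries. Limma-voom called 276 higher and 50 lower. Under those 3 fits (DESeq2, no filter, 13 libraries), list members called were 325, 427 and 364 in place of 139 (4 to 147 with 1 library left out), and genes called both here and in development 283, 336 and 466 in place of 122 (207 with no fold change limit, 1 to 135 with 1 library left out). Promoters with the interferon element core among genes called higher were 17.4%, 16% and 12.6% in place of 25.1% (20% to 50%), and calls on the X chromosome 14, 14 and 30 in place of 4 (0 to 5). Of 69 genes named in the text that passed, 3 to 53 passed with 1 library left out. The rod share difference ran from -2.766 to -0.628 percentage points.

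The labels number replicates in both groups, and same-numbered samples did not deviate together (correlations -0.0117 and -0.0351). With 2 AAV2-Cre libraries, the deviations of each mirror those of the other. These values therefore cannot settle whether a shared number marks a shared batch. With the replicate block, 226 genes were higher and 21 lower, and 159 of the 247 were among them. With the exon length offset, 141 were higher and 34 lower, and 166 of the 247 were among them.

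Genes near 0 changed sign. Kdm6a was at 0.009 with TMM factors computed without list genes, 0.015 with 13 libraries, 0.039 with the block, 0.061 with the length offset, and between -0.071 and 0.054 with 1 library left out (0.021 without AAV2-Cre replicate 1). Nefl was at -0.009 with no scaling, -0.022 with the block, -0.011 with the offset, and between -0.040 and 0.167 with 1 library left out. Over the same fits Ifng ranged from -0.186 to 1.109, Kdm6b from -0.523 to 0.001 and P2ry12 from -0.417 to 0.242, and each of them changed sign without AAV2-Cre replicate 1. The causes were not tested.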
